A study of Oncorhynchus mykiss with 9 samples.

Results

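The genes described here are those of protein folding, glycosylation, export and degradation in the endoplasmic reticulum (ER) of the rainbow trout (Oncorhynchus mykiss) head kidney. They are the gene rows whose first-listed KEGG pathway is protein processing in the ER, without heat shock proteins, the stress sensors and their transcription factors, a few of their chaperone targets, and the cell death genes bcl2 and bax. The rule took 283 of the 44219 genes in the deposited table, after 27 of the 310 rows of that pathway were left out by symbol. It used annotation and no measured value. Of the 283 rows, 260 reached a group mean of 10 counts and were analysed, 23 did not, and 5 of those 23 were listed at 0 in all groups. The 283 rows carried 133 symbols, 86 of them on more than 1 row, and 12 rows had no symbol. Copies of a symbol are common in trout, whose ancestors underwent a whole-genome duplication, and are numbered here from the most to the least abundant in the control by FPKM (fragments per kilobase of gene, scaled to library size). Genome positions were not used here.

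Proteins that enter the secretory pathway pass through the Sec61 channel into the ER, where an oligosaccharyltransferase attaches a preformed sugar tree, chaperones and disulfide isomerases fold the chain, and the lectins calnexin and calreticulin hold glycoproteins until they are folded. Folded cargo leaves in vesicles coated by the COPII proteins, while chains that fail are pulled back through the membrane, marked with ubiquitin and handed to the proteasome, a route called ER-associated degradation (ERAD). The fish head kidney makes blood cells and also yields antibody-secreting cells, whose ER is large. Roles named below are those described in mammals or yeast.

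Head kidneys came from full-sibling fish of about 130 g held at 12 °C, in 9 libraries. The control group was normoxic at 8.5 mg/L dissolved oxygen and is labelled 0 h, the moderate group was held at 4.5 mg/L for 12 h, and the severe group at 3 mg/L for 12 h, oxygen being lowered with nitrogen gas. Each group had 3 libraries, and for each gene and group the table holds 1 mean estimated count and 1 FPKM. The spread between fish is therefore unknown, so the differences are given without a replicate check or a p-value. Against the control, time and oxygen differ together in either hypoxia group and cannot be told apart.

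The mean total per library was between 14700244 and 15301518 counts, and the member rows took 0.597% of it in the control, 0.951% under moderate and 0.708% under severe hypoxia. Globin transcripts took 13.0%, 4.12% and 7.38%, and TMM scaling (the trimmed mean of M values) set the divisor at 1.62 for moderate and 1.22 for severe hypoxia. On library totals without this scaling, the median log2 ratio of all analysed genes was 0.69 for moderate and 0.34 for severe hypoxia against the control, so each ratio below is relative to the bulk of genes. Summed FPKM of the erythroid markers was 55754, 17463 and 33761 in the control, moderate and severe groups, and that of the exocrine pancreas markers, which belong to another ER-rich tissue, 32.8, 8.74 and 18.0. For the 5 of 7 B and plasma cell markers found, summed FPKM was 103, 200 and 211, with pax5 listed at 0 in the control and in severe hypoxia. On scaled counts this list had log2 ratios of 0.25 in moderate and 0.60 in severe hypoxia against the control. Most of the sum was cd79a, at 50.4, 103 and 118 FPKM, and cd79b, at 42.5, 78.6 and 81.8 FPKM, both highest in severe hypoxia. The factors of antibody-secreting cells irf4, at 6.89, 12.0 and 8.09 FPKM, and prdm1, at 3.35, 6.62 and 2.67 FPKM, were highest in the moderate group. FPKM is per library total, on which the median gene was itself 0.69 higher (log2) in that group. Most rows of the folding, oligosaccharyltransferase, lectin and export steps below were also highest there, but on scaled counts, which are not a like measure. The B and plasma cell markers thus went different ways. The 1 of 3 neutrophil markers found, mmp9, stood at 125, 889 and 154 FPKM. The muscle markers stood at 150, 25.4 and 105 FPKM, the liver markers at 22.3, 3.85 and 29.0, the interrenal markers at 165, 130 and 278, the chromaffin markers at 8.84, 8.73 and 12.2, and the T cell markers at 19.9, 36.0 and 29.6. On scaled counts, log2 ratios in moderate and severe hypoxia were -1.02 and 0.44 for interrenal and -0.61 and 0.14 for chromaffin markers. They were 0.12 and 0.21 for T cell, -3.25 and -0.82 for muscle, and -2.91 and 0.01 for liver markers. Erythroid markers had -2.34 and -1.06, exocrine pancreas markers -2.56 and -1.23, and mmp9 2.13 and -0.06. In FPKM some single markers were higher in moderate hypoxia than in the control while the sum of their list was lower. Among them were the liver marker tf, at 0.951, 3.22 and 1.25 FPKM, and the chromaffin marker th, at 0.657, 1.76 and 1.79. The interrenal marker cyp17a1, at 5.53, 9.045 and 10.4 FPKM, and the muscle marker actc1, at 0.353, 0.519 and 0.849, were others. In bulk tissue, fewer cells of a type and less RNA per cell cannot be told apart, and the part of these cell types in the results below was not tested.

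Taken over all steps, the members followed the bulk of the genes. A row was counted as higher or lower at a difference of 2-fold or more in scaled counts. In moderate hypoxia 51 of 260 rows (19.6%) were higher than in the control, against 20% of all 28711 analysed genes, and 26 (10%) were lower, against 14.1%. In severe hypoxia 27 rows (10.4%) were higher than in the control, against 13.7% of all genes, and 6 (2.31%) were lower, against 4.4%. The 27 include a WFS1 row listed at 0 in severe hypoxia, which counts as higher only because a group at 0 was set to 3 counts. The share of all genes uses the same floor. Between the hypoxia groups, 13 rows (5%) were higher in severe than in moderate hypoxia, against 9.03% of all genes, and 20 (7.69%) were lower, against 10.5%. All 6 shares lay below those of all genes. The members were also more abundant, with a median of 4.45 FPKM in the control beside 2.01 for all genes. The part of abundance in these shares was not tested. The median log2 ratio of the members was 0.09, -0.04 and -0.13 in the same 3 comparisons, and that of all genes 0.00, 0.00 and 0.01. On library totals the counts in moderate hypoxia became 109 higher and 4 lower, with a members' median of 0.78 beside 0.69 for all genes. The share of all genes is not given for library totals, so these counts show no rise particular to the members.

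The steps of the pathway differed from each other in moderate hypoxia. Against the control, the median log2 ratio was 0.77 for the 14 rows of luminal folding and disulfide formation, 0.67 for the 11 of the oligosaccharyltransferase, 0.42 for the 12 of the lectin cycle and 0.39 for the 29 of COPII export. It was 0.22 for the 30 rows of translocation, -0.06 for the 56 of the ERAD membrane machinery and -0.27 for the 35 of the cytosolic part of ERAD. The folding median thus exceeded that of export by 0.38 and that of membrane ERAD by 0.83 on the log2 scale, and export exceeded membrane ERAD by 0.45. These differences between steps do not depend on the scaling. Counted at 2-fold in moderate hypoxia, 6 folding rows (42.9%) were higher and 0 lower, beside 20% and 14.1% of all genes. Of 20 further rows on the same folding list that are not members, 1 (5%) was higher and 0 were lower. The high share is thus that of the member rows and not of the whole folding list. For export 6 rows (20.7%) were higher and 1 lower, and for membrane ERAD 11 (19.6%) and 3, shares of higher rows near that of all genes. For cytosolic ERAD 1 row (2.86%) was higher and 3 were lower. Rows of a symbol are copies and steps hold few genes, so these medians describe the libraries and carry no test.

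In severe hypoxia the same steps lay closer together, and so did the ratios of all genes. The lower and upper quartiles of all genes were -0.62 and 0.76 in moderate and -0.34 and 0.49 in severe hypoxia. Against the control the median was 0.26 for folding, 0.04 for export, -0.05 for membrane ERAD, -0.17 for cytosolic ERAD, -0.02 for the oligosaccharyltransferase, -0.24 for the lectin cycle and 0.03 for translocation. Folding exceeded export by 0.22 and membrane ERAD by 0.31, and export exceeded membrane ERAD by 0.09. Severe set directly against moderate hypoxia gave -0.39 for folding, -0.49 for export, -0.69 for the oligosaccharyltransferase, -0.61 for the lectin cycle, -0.04 for translocation, -0.06 for membrane ERAD and -0.11 for cytosolic ERAD. The scaled count was highest in the moderate group for 10 of 11 oligosaccharyltransferase rows, 11 of 14 folding rows, 9 of 12 lectin cycle rows and 19 of 29 export rows. It was highest there for 23 of 56 membrane ERAD rows and 14 of 35 cytosolic ERAD rows, beside 48.1% of all members and 40.0% of all genes. The order of control below severe below moderate was seen in 10 of 14 folding rows (71.4%), beside 29.6% of the members and 27.4% of all genes.

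**Figure D1:**
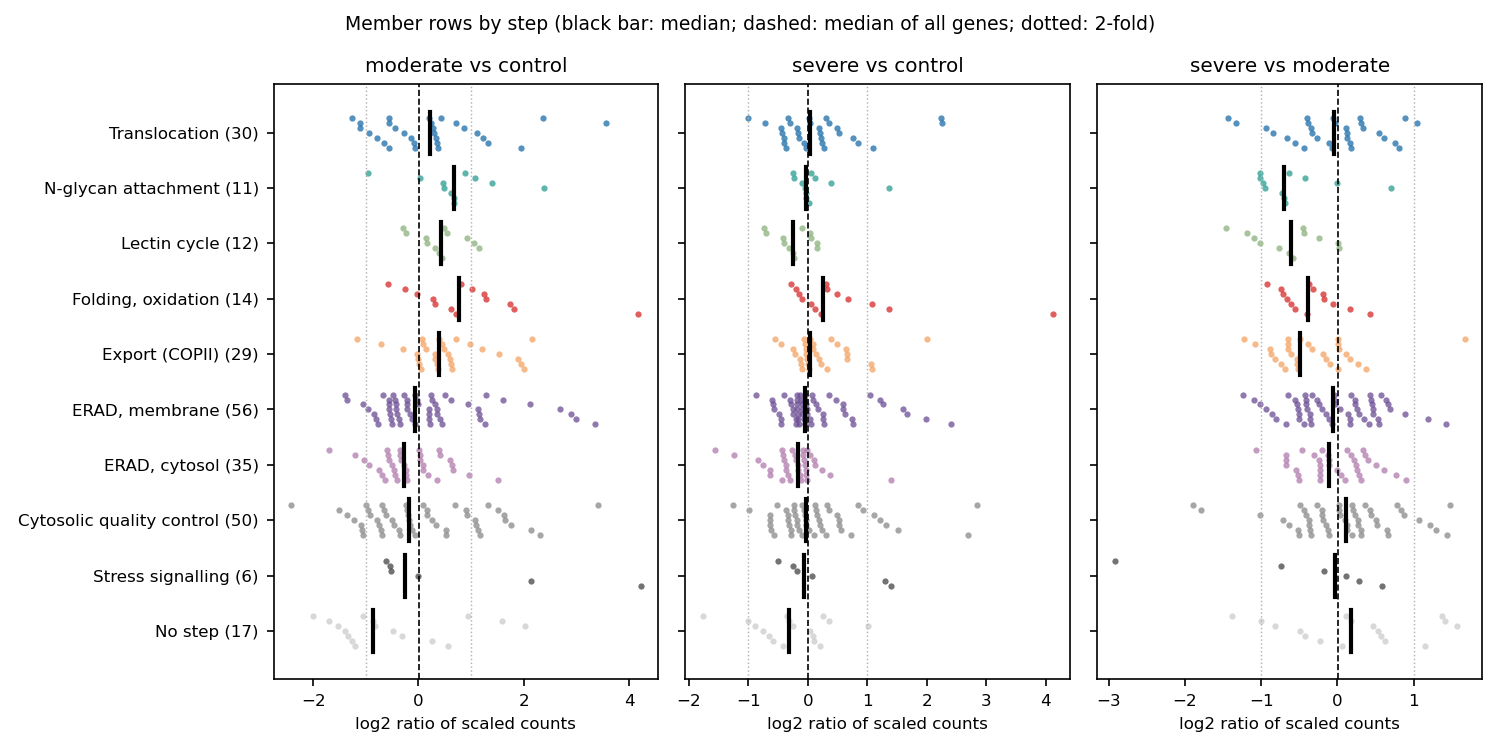
Log2 ratio of TMM-scaled group counts of each analysed member row (points), by pathway step (number of rows in brackets), for the 3 comparisons; black bars are step medians, the dashed line the median of all genes, dotted lines a 2-fold difference. In moderate hypoxia the folding median lies at 0.77 and the membrane ERAD median at -0.06, and in severe hypoxia they lie at 0.26 and -0.05; on library totals every point of the moderate panel would lie 0.69 further right.

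Entry into the ER was split by subunit. The channel's pore-forming alpha subunit was higher in moderate hypoxia and its small beta and gamma subunits were lower. The second sec61ab row, 1 of 4 rows of the alpha subunit, had 242 counts in the control, 1517 under moderate and 634 under severe hypoxia, and was 3.88-fold higher in moderate hypoxia (95% counting interval 3.59 to 4.20) and 2.15-fold higher in severe hypoxia (1.97 to 2.35). Its more abundant copy had 559, 1637 and 780.3 counts, with log2 ratios of 0.86 and 0.19. The other alpha rows, sec61aa and sec61a, had log2 ratios of 0.37 and 0.20 in moderate hypoxia. Moderate hypoxia was thus the highest group for the 2 sec61ab rows on scaled counts, with the control lowest.

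For the beta subunit, a small tail-anchored protein beside the pore, SEC61B had 2407 counts in the control, 1803 under moderate and 2388 under severe hypoxia. It was 2.16-fold lower in moderate hypoxia (2.08 to 2.24) and 1.23-fold lower in severe hypoxia (1.19 to 1.27), and its copy sec61b 2.39-fold and 1.29-fold lower. Of the 3 gamma rows, sec61g had a log2 ratio of -1.11 in moderate hypoxia, SEC61G -0.79 and sc61g -0.55. Summed over rows, the alpha subunit stood at 48.6, 156 and 87.5 FPKM in the control, moderate and severe groups, the beta subunit at 262, 189 and 265 FPKM. The FPKM of alpha relative to beta was 0.186 in the control, 0.824 under moderate and 0.330 under severe hypoxia, and relative to gamma 0.317, 1.04 and 0.482. The moderate group therefore had the most even subunit levels of the 3 groups.

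The beta and gamma rows are short, with lengths derived from count and FPKM of 425 to 940 bases, and short genes as a class were low in moderate hypoxia. All analysed genes under 1000 bases had a median log2 ratio of -1.06 there, and -0.38 in severe hypoxia. Set against genes of like length, the 2 beta rows stood at -0.11 and -0.25 and the 3 gamma rows at 0.31, 0.00 and 0.66 in moderate hypoxia, while the second sec61ab row stood at 2.32. The beta rows thus lay a little below other short genes and none of the gamma rows did.

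Other translocation genes varied widely. Of the 3 tram1l1 rows, named for the TRAM protein that sits beside the channel, the second had 21.3, 408 and 122 counts and was 11.8-fold higher in moderate hypoxia (9.19 to 15.4) and 4.70-fold higher in severe hypoxia (3.60 to 6.23). Copy 3 had 10, 83.7 and 58.3 counts, with log2 ratios of 2.37 and 2.26, and the most abundant 97.3, 199 and 147 counts, with 0.34 and 0.31. Both hypoxia groups lay above the control in all 3 rows. The translocon-associated protein complex (TRAP) was split in a like way, since ssr1, its alpha subunit, had log2 ratios of 1.32, 0.71 and -0.07 on its 3 rows in moderate hypoxia, and the beta rows SSR2 and ssrb -0.57 and -0.94. The shortest ssr1 row, of 909 bases, was the one near 0. The beta rows are also short, at 1332 and 1158 bases, and stood at -0.01 and -0.29 against genes of like length. Summed over rows, the gamma and delta subunits of TRAP had log2 ratios of -0.32 and -0.50. Against genes of like length the gamma rows stood at 0.96 and 0.55 and the delta rows at 0.01 and -0.10. Sec62 and Sec63, which serve import of finished chains, stayed within 2-fold, with sec63 at 0.23 and -0.17 and SEC62 at 0.35 and 0.53 on its more abundant row.

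The oligosaccharyltransferase, which attaches the N-glycan, lay above the control in moderate hypoxia on 10 of 11 member rows, but on only 4 of 8 rows of further subunits and copies that are not members. Its catalytic subunit gene stt3b had 158 counts in the control, 1333 under moderate and 499 under severe hypoxia on its most abundant row. That row was 5.20-fold higher in moderate (4.73 to 5.73) and 2.58-fold higher in severe hypoxia (2.33 to 2.87). The other analysed STT3B rows had log2 ratios of 0.48 and 1.07 in moderate hypoxia, and STT3A, the catalytic subunit that acts during translocation, had 619, 1590 and 744 counts, a log2 ratio of 0.67. In FPKM, stt3b summed over its rows relative to the STT3A row was 0.590 in the control, 1.13 under moderate and 1.03 under severe hypoxia. The balance of these rows thus differed between the control and both hypoxia groups. Among the 8 rows outside the pathway, which are not in that sum, a further stt3a row had 367, 932 and 336 counts and a log2 ratio of 0.65.

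Among the accessory subunits, rpn2 had 256, 1094 and 409 counts on its second row, 2.64-fold higher in moderate hypoxia (2.44 to 2.86), and RPN2 had a log2 ratio of 0.88. The ribophorin RPN1 had log2 ratios of 0.46 and 0.61, and ddost, a scaffold subunit, 0.68 and 0.03. In severe hypoxia these 6 rows lay between -0.24 and 0.39. The exception among the member rows was dad1, a small subunit needed for the complex to hold together, with 811, 679 and 836 counts. It was 1.93-fold lower in moderate hypoxia (1.82 to 2.05), is 717 bases long, and stood at 0.16 against genes of like length. Of the subunits outside the pathway, ostc had log2 ratios of -0.17, -0.90 and -1.31 on its 3 rows in moderate hypoxia, krtcap2 0.05 and -0.51, and magt1 1.27 and 1.91. These 8 rows had a median of -0.06, beside 0.67 for the member rows. They are also shorter, with a median length of 1226 bases beside 2725. All genes of 1000 to 1500 bases had a median of -0.59 in moderate hypoxia.

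**Figure D2:**
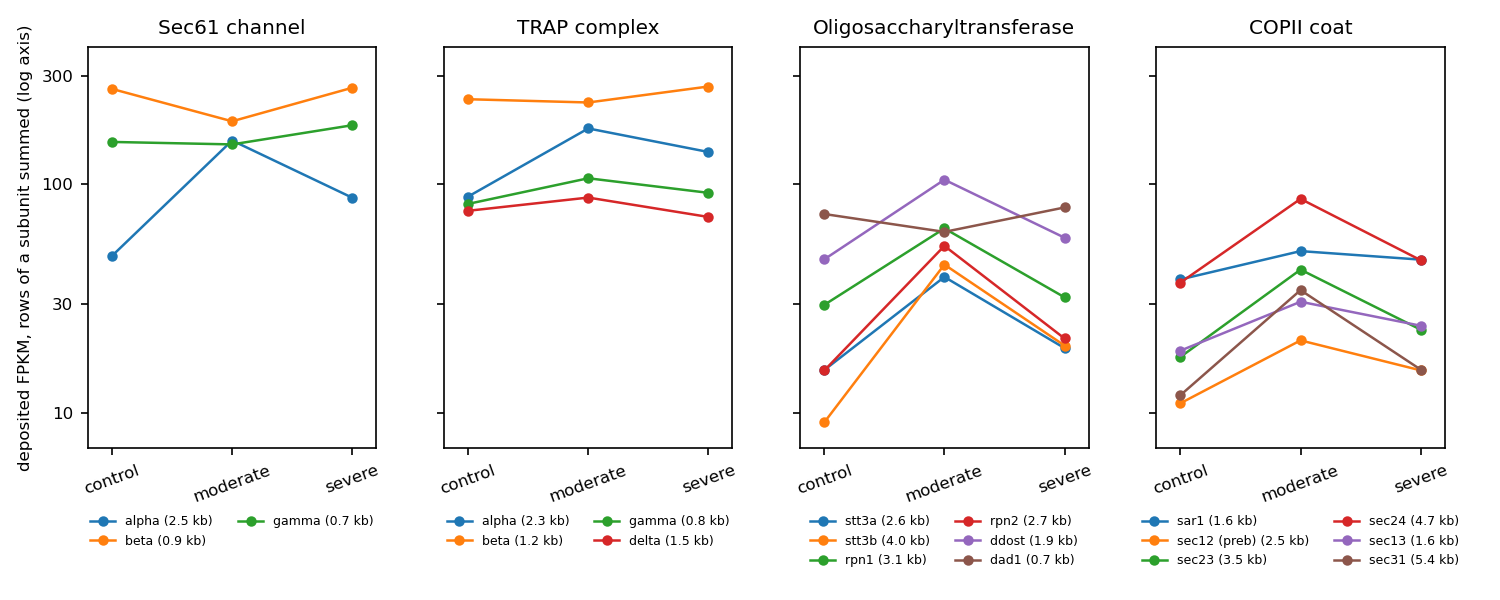
Deposited FPKM, summed over the rows of a subunit (log axis), in the control, moderate and severe groups for 4 complexes, with the median derived gene length in the legend; each point is 1 group value without an error. The Sec61 alpha subunit goes from 48.6 to 156 and 87.5 FPKM while the beta subunit goes from 262 to 189 and 265; FPKM is per library total, on which the median gene is 0.69 higher (log2) in moderate hypoxia than in the control.

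Among the member rows, luminal folding genes had the highest median of the steps in moderate hypoxia, and ero1a the largest ratio among them. The gene ero1a encodes an oxidase that passes electrons from disulfide isomerases to oxygen, and its mammalian counterpart is a known target of the hypoxia-inducible factor. It had 6.33 counts in the control, 186 under moderate and 134 under severe hypoxia. It was 18.1-fold higher in moderate hypoxia (11.5 to 30.3) and 17.3-fold higher in severe hypoxia (11 to 29.1), and the 2 hypoxia groups differed by -0.06 on the log2 scale (-0.25 to 0.12). Both hypoxia groups lay far above the control. On scaled counts they were, within counting error, at one level, unlike most folding genes, which were lower in severe than in moderate hypoxia. That level depends on the scaling, since in FPKM ero1a stood at 4.56 in moderate and 3.51 in severe hypoxia.

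The related oxidase ero1b was split between copies. Its abundant row had 732, 795 and 809 counts, with log2 ratios of -0.57 in moderate and -0.14 in severe hypoxia, and its second row 60, 323 and 188 counts, 3.33-fold higher in moderate (2.84 to 3.93) and 2.57-fold higher in severe hypoxia (2.17 to 3.06). With both rows summed the log2 ratio was -0.20 in moderate hypoxia. In FPKM, ero1a relative to the sum of ero1b was 0.0139 in the control, 0.240 under moderate and 0.213 under severe hypoxia. Even in hypoxia ero1b transcripts therefore exceeded those of ero1a.

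The disulfide isomerases lay above the control in moderate hypoxia on all 6 rows. P4hb, which also serves as the beta subunit of collagen prolyl hydroxylase, had 702 counts in the control, 2762 under moderate and 1366 under severe hypoxia, and its copy P4HB 782, 2569 and 1176. The rows were 2.43-fold (2.32 to 2.55) and 2.03-fold higher (1.94 to 2.13) in moderate hypoxia and 1.60-fold (1.51 to 1.68) and 1.23-fold higher (1.17 to 1.30) in severe hypoxia. Both copies had the order control, severe, moderate. PDIA6, an isomerase that acts with the chaperone BiP, had 1145, 2235 and 1143 counts on one row and 709.7, 1890 and 904 on the other. Its log2 ratios were 0.27 and 0.72 in moderate and -0.29 and 0.06 in severe hypoxia. In FPKM, P4HB relative to PDIA6 was 0.600 in the control, 0.971 under moderate and 0.933 under severe hypoxia. Txndc5, a further isomerase, had log2 ratios of 0.62 and 0.32 on its 2 rows in moderate and 0.22 and 0.13 in severe hypoxia.

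Co-chaperones of BiP went different ways. SIL1, which makes BiP release its nucleotide, had 74.3, 423 and 191 counts and was 3.52-fold higher in moderate (3.05 to 4.08) and 2.11-fold higher in severe hypoxia (1.80 to 2.47). Its second row had log2 ratios of 0.81 and 0.50. The gene dnajc10, a reductase that opens wrong disulfides ahead of degradation, had 40.3, 155 and 61.7 counts, 2.37-fold higher in moderate hypoxia (1.94 to 2.92) and 1.25-fold in severe hypoxia (0.991 to 1.59). The 2 rows of dnajc1, which couples BiP to ribosomes, stood at -0.02 and -0.25 in moderate hypoxia.

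The lectin cycle lay above the control in moderate hypoxia and mostly at or below it in severe hypoxia. Its genes trim the N-glycan, bind it and test whether the protein is folded. UGGT1, the folding sensor that adds a glucose back to chains not yet folded, had 331, 1023 and 339 counts on one row and 239.6, 808 and 222 on the other. The rows were 1.91-fold (1.78 to 2.05) and 2.08-fold higher (1.92 to 2.27) in moderate hypoxia, and 1.19-fold (1.09 to 1.30) and 1.32-fold lower (1.19 to 1.47) in severe hypoxia. These rows are long, and against genes of like length their log2 values in moderate hypoxia were 0.55 and 0.70. Set directly against moderate hypoxia, the severe group was 2.27-fold (2.12 to 2.44) and 2.75-fold lower (2.52 to 3.00). Its relative uggt2 had 147, 295 and 109.7 counts, with log2 ratios of 0.32 and -0.71. Against genes of like length uggt2 stood at -0.07 in moderate hypoxia.

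Calnexin, the membrane lectin that holds monoglucosylated glycoproteins, had 2190, 4844 and 2137 counts on its abundant row CANX and 939.7, 2203 and 1067 on canx. The log2 ratios were 0.45 and 0.53 in moderate and -0.32 and -0.10 in severe hypoxia. These rows are long, and against genes of like length the moderate values were 0.09 and 0.28. The glucosidase subunit gene ganab had 232, 834 and 294 counts, 2.22-fold higher in moderate hypoxia (2.05 to 2.42) and 1.04-fold in severe hypoxia (0.940 to 1.15), while its partner PRKCSH lay between -0.24 and 0.40 on 3 rows. The 2 rows of Mogs, the first glucosidase, stood at 0.49 and -0.29.

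Export from the ER was higher in moderate hypoxia for most coat subunits, with wide differences between copies of its GTPase. Among the cargo-binding SEC24 proteins, SEC24C had 181, 673 and 288 counts on one row and 145, 681 and 280.0 on the other. The rows were 2.30-fold (2.09 to 2.53) and 2.90-fold higher (2.61 to 3.22) in moderate and 1.31-fold (1.17 to 1.46) and 1.58-fold higher (1.41 to 1.78) in severe hypoxia. SEC24A, sec24b and sec24d, on 6 rows, lay between 0.32 and 0.61 in moderate hypoxia and between -0.25 and 0.00 in severe hypoxia. These rows are long, and against genes of like length their moderate values were between -0.04 and 0.28. Those of the SEC24C rows were 0.87 and 1.27. SEC24C was thus the SEC24 form with the higher ratio in both hypoxia groups, apart from a row with the cut-off symbol si:dkey- and the SEC24 annotation, which had 25, 156 and 63.7 counts and a log2 ratio of 1.94.

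On scaled counts, the other coat genes ranged from no difference to one of more than 3-fold. SEC23A, the GTPase activator of the inner coat, lay between 0.14 and 0.97 on 4 rows in moderate hypoxia, the highest row having 239.5 counts in the control, 760.1 under moderate and 364 under severe hypoxia. In the outer coat, sec31b had 118, 703 and 226 counts, 3.69-fold higher in moderate (3.30 to 4.14) and 1.57-fold higher in severe hypoxia (1.38 to 1.79), and sec31a had log2 ratios of 0.48 and 0.71. Its partner sec13, which is also part of the nuclear pore, had 469, 769 and 581 counts, with log2 ratios of 0.02 and 0.02. Against genes of like length in moderate hypoxia, sec13 stood at 0.37, the sec31a rows at 0.14 and 0.33, and sec31b at 1.57. Preb, the exchange factor that starts coat assembly, stood at 0.37 and 0.07.

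The GTPase SAR1, which recruits the coat, had 6 rows, 5 of them analysed, that pointed both ways. The most abundant, SAR1A, had 1037, 1020 and 929.7 counts, 1.64-fold lower in moderate (1.56 to 1.73) and 1.36-fold lower in severe hypoxia (1.29 to 1.43), and sar1a had log2 ratios of 0.63 and 0.64. SAR1B had 96.3, 69 and 165 counts on its abundant row, which was 2.26-fold lower in moderate hypoxia (1.88 to 2.71) and 1.41-fold higher in severe hypoxia (1.21 to 1.63). Its copies 2 and 3 had 10.9, 78.9 and 28.2 and 8.43, 54.8 and 41.4 counts, 4.47-fold (3.08 to 6.60) and 4.01-fold higher (2.65 to 6.45) in moderate hypoxia. No order of the groups was common to the SAR1B rows. Of the cargo receptors, lman1 stood at 0.06 and -0.01 on 2 rows in moderate hypoxia, LMAN2 at -0.30 and -0.02, and bcap31 at 0.08.

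**Figure D3:**
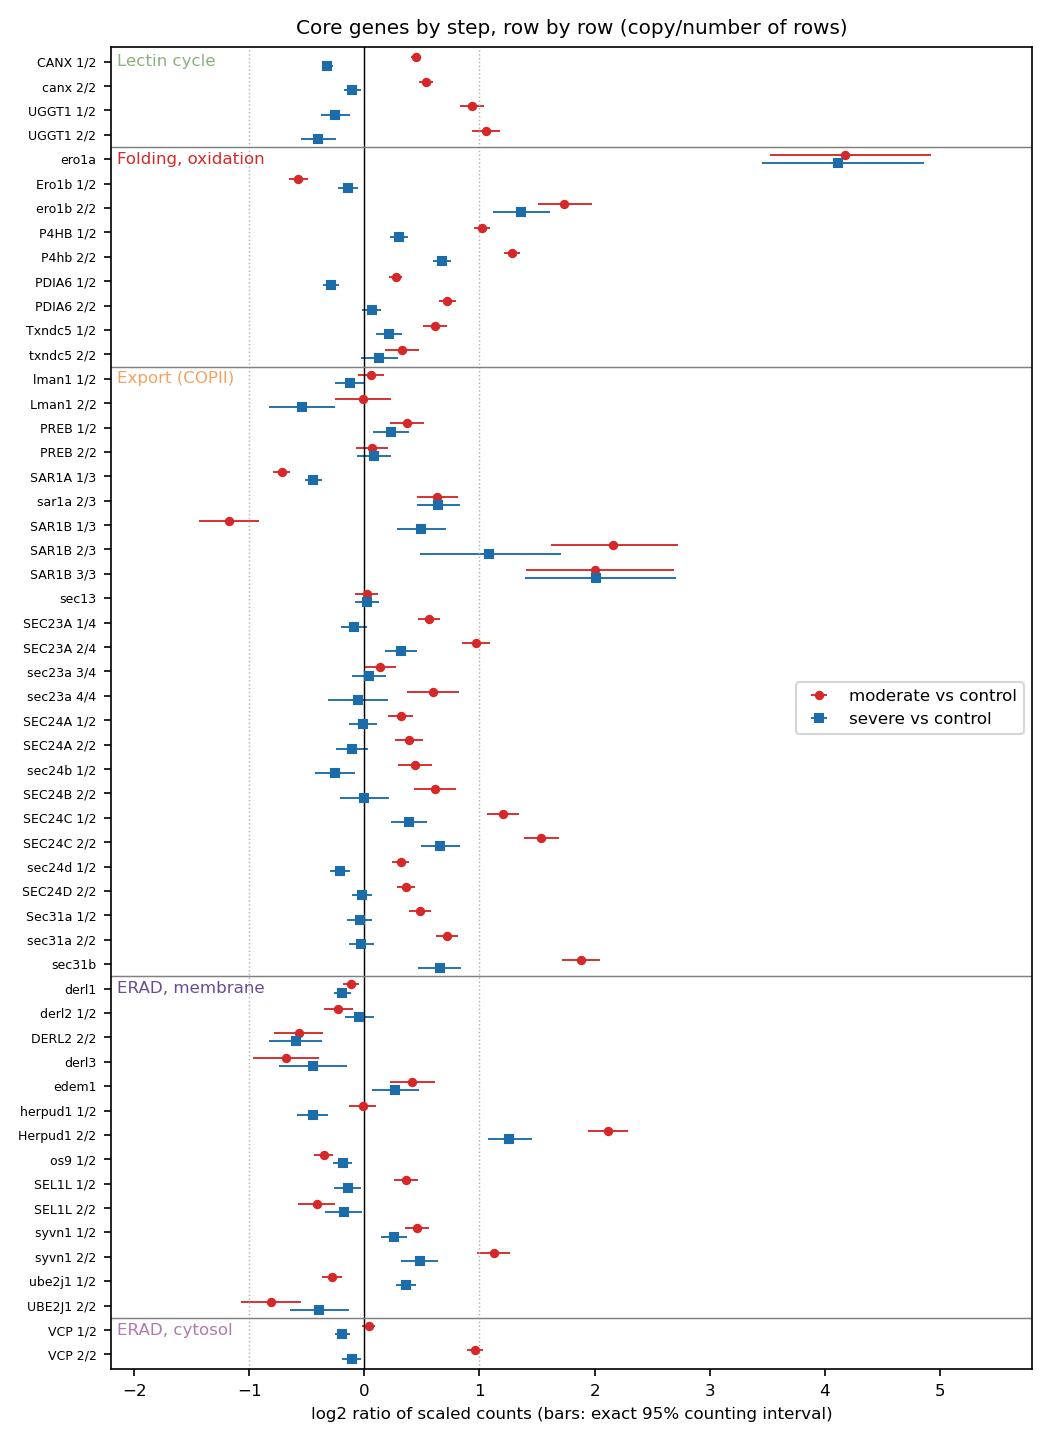
Log2 ratio of scaled counts against the control in moderate (red circles) and severe (blue squares) hypoxia for each row of the core genes of 5 steps, with exact 95% counting intervals as bars and the copy number after the symbol; variation between fish is not included. The isomerase rows P4HB, P4hb and PDIA6 lie between 0.27 and 1.28 in moderate hypoxia and the derlin rows between -0.68 and -0.12; on library totals all moderate values shift by 0.69, and the derlin values change sign.

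Genes of the ERAD membrane machinery had a median near that of all genes, with a few rows of low abundance far above it. Apart from a UBE2G1 row of at most 32.3 counts, the largest ratios belonged to the lectin and mannosidase genes that mark glycoproteins for disposal. MAN1B1, a mannosidase that trims glycans of chains to be disposed of, had 6.67, 110.0 and 43.3 counts, 10.2-fold higher in moderate (6.50 to 16.9) and 5.33-fold higher in severe hypoxia (3.31 to 9.01). The row man1b1b had 13.7, 143 and 50.7 counts, 6.47-fold (4.69 to 9.14) and 3.04-fold higher (2.14 to 4.40), while man1b1a had log2 ratios of -0.17 and -0.58. ERLEC1, a lectin that reads the trimmed glycan, had 14.7, 190 and 71 counts on its less abundant row, 7.99-fold higher in moderate hypoxia (5.88 to 11.1), and 231, 357 and 154 counts on the abundant row, with log2 ratios of -0.06 and -0.87. The other lectin, os9, had 753, 953 and 806 counts and ratios of -0.35 and -0.19.

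The Hrd1 ligase complex was uneven. The ligase gene syvn1 had 362, 803 and 526 counts on one row and 176, 621 and 299.8 on the other, with log2 ratios of 0.46 and 1.12 in moderate and 0.25 and 0.48 in severe hypoxia. Its adaptor SEL1L had 378, 785 and 418 counts on one row and 201, 243 and 216 on the other, with log2 ratios of 0.36 and -0.42 in moderate hypoxia. HERPUD1, which brings ubiquilins to the complex and is a known target of the ER stress response, had 101, 708 and 295 counts on its second row, 4.33-fold higher in moderate (3.84 to 4.90) and 2.39-fold higher in severe hypoxia (2.10 to 2.74). Its abundant row had 327, 523 and 292 counts, with log2 ratios of -0.02 and -0.45. The copy that was less abundant in the control thus had the higher ratio and, in moderate hypoxia, the higher level, at 22.4 FPKM beside 9.66.

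The derlins, the channel-like proteins of the complex, lay below the median gene in moderate hypoxia, but derl3 alone lay more than 0.1 below genes of like length. The most abundant, derl1, had 991, 1479 and 1059 counts, with log2 ratios of -0.12 and -0.19, derl2 had -0.23 and -0.57 on 2 rows in moderate hypoxia, and derl3 -0.68. Against genes of like length derl1 stood at 0.03, the derl2 rows at -0.03 and 0.08, and derl3 at -0.32. The EDEM proteins, which hand glycoproteins to the route, stayed within 2-fold, since edem1 had 110.3, 238 and 162 counts and log2 ratios of 0.42 and 0.27, edem2 -0.06 and -0.58, and the 3 edem3 rows 0.19 to 0.32 in moderate hypoxia. Of the other ligases, RNF5 stood at 1.61 and 1.28 on its 2 rows in moderate hypoxia, while MARCHF6 stood at 1.27 on its least abundant row and at 0.26 on its most abundant one. The ubiquitin-conjugating enzymes lay lower, with ube2j1 (625, 833 and 979.7 counts) at -0.28 in moderate and 0.36 in severe hypoxia, and UBE2G1 between -1.06 and -0.55 on its 4 abundant rows. The selenoprotein gene vimp, which anchors p97 to the membrane, had 167, 106 and 182 counts on its second row, 2.55-fold lower in moderate hypoxia (2.21 to 2.95) and 1.12-fold lower in severe hypoxia (0.989 to 1.27).

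The cytosolic part of ERAD had a median log2 ratio of -0.27 in moderate hypoxia, with 14 of 35 rows above 0. Its motor and the cofactors of that motor were split. VCP, the p97 ATPase that pulls chains from the membrane, had 1392, 2310 and 1488 counts on one row and 744, 2344 and 841 on the other, with log2 ratios of 0.04 and 0.96 in moderate and -0.19 and -0.11 in severe hypoxia. In FPKM the rows stood at 33.1 and 16.4 in the control and at 49.8 and 51.4 in moderate hypoxia, so that unequal levels became nearly equal. Of its cofactors, UFD1 had 625, 441 and 565 counts on its abundant row, 2.30-fold lower in moderate hypoxia (2.14 to 2.46), and -0.69 on the second, while its partner NPLOC4 stood at 0.39 and 0.60. UFD1 rows are 1804 and 2080 bases long and NPLOC4 rows over 4000. Against genes of like length the UFD1 rows stood at -0.89 and -0.50 and the NPLOC4 rows at 0.15 and 0.28. The FPKM of NPLOC4 relative to UFD1 was 0.129 in the control, 0.350 under moderate and 0.159 under severe hypoxia. Plaa, a further p97 cofactor, had log2 ratios of 0.66 and 0.63, and the deubiquitinase gene atxn3 -0.57 on its abundant row and -1.69 on a row of 30.7, 15.3 and 12.7 counts. The ubiquilins, shuttle proteins that carry chains to the proteasome, lay between -0.45 and 0.35 on 4 rows and at 1.51 on a row of at most 15.3 counts.

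Cytosolic quality control genes of the pathway, co-chaperones and ubiquitin ligases, gave 12 higher (24%) and 8 lower (16%) of 50 rows in moderate hypoxia, near the 20% and 14.1% of all genes, with a median of -0.17. The largest ratio was that of a dnajc5 row, a co-chaperone of secretory vesicles, with 7.67, 132 and 60.5 counts, 10.6-fold higher in moderate (6.97 to 16.9) and 6.47-fold higher in severe hypoxia (4.19 to 10.5). More abundant DNAJC5 rows had 98.3, 258 and 153 and 90, 62 and 73.7 counts, with log2 ratios of 0.70 and -1.23. The co-chaperones DNAJA1 and DNAJA2 lay between -0.72 and -0.35 on 6 rows. Among the 6 stress signalling rows, wfs1b, an ER membrane protein that restrains the stress response, had 19.0, 136 and 61.2 counts, 4.42-fold (3.34 to 5.93) and 2.65-fold higher (1.95 to 3.61). The transcription factor gene nfe2l2a, of the oxidative stress response, had 3019, 3419 and 3857 counts, with log2 ratios of -0.52 and 0.07, and the protease genes mbtps1 and mbtps2, which cut ATF6, had -0.01 and -0.61 in moderate hypoxia. A WFS1 row with 10.05 counts in moderate hypoxia was listed at 0 in severe hypoxia. Its log2 ratio of 1.30 in severe hypoxia comes from the floor of 3 counts for a group at 0 and shows no rise. The last 17 rows had no place in a step.

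Copies of a symbol differed among the members, as they did across the table. For the 58 symbols with 2 analysed rows and a step, the median absolute difference between the copies' log2 ratios in moderate hypoxia was 0.34, and 11 symbols (19.0%) differed by 2-fold or more. Over all 4919 symbols with 2 analysed rows these values were 0.55 and 29.7%. In severe hypoxia 7 of 58 (12.1%) differed so far, against 20.1% of all. The copy that was less abundant in the control had the higher ratio in moderate hypoxia for 33 of the 58 symbols (56.9%), against 68.4% of all; the control is also the denominator of that ratio. The splits of ero1b, herpud1 and erlec1 between copies were among the larger ones, and reads of near-identical copies may be shared between rows.

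Gene length moved with the log2 ratio in moderate hypoxia over all genes (Pearson r 0.28 over 28710 genes of the same 3 group values), and less so over the members (0.11 over 260 rows). By rank (Spearman) the values were 0.35 and 0.22. For severe against moderate hypoxia the members followed length about as much as all genes, with Pearson r of -0.27 and -0.29. All genes of 4000 bases or more had a median of 0.40 in moderate hypoxia and members of that length 0.34. With the length trend removed, the step medians were 0.69 for folding, 0.66 for the oligosaccharyltransferase, 0.35 for translocation, 0.28 for export, 0.26 for the lectin cycle, -0.05 for membrane ERAD and -0.15 for cytosolic ERAD. The order of folding above export above ERAD was the same. The part of length in the remaining differences was not tested.

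**Figure D4:**
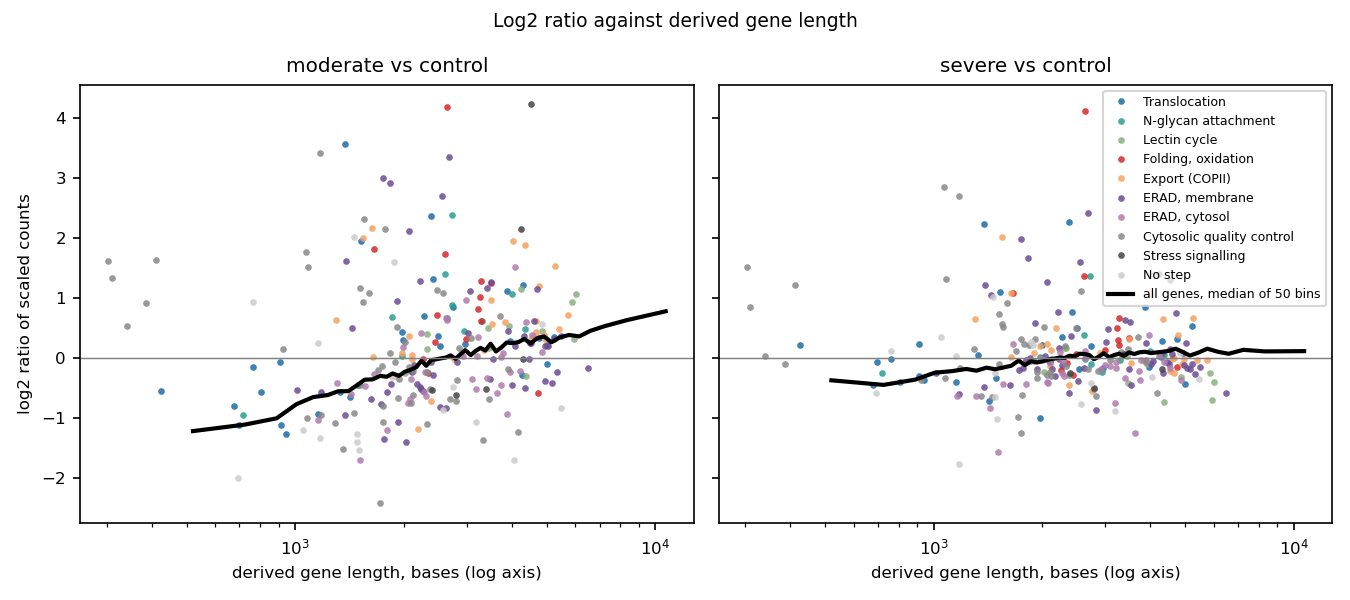
Log2 ratio of scaled counts against derived gene length (log axis) for each analysed member row, coloured by step, in moderate (left) and severe hypoxia (right) against the control; the black line is the median of all genes in 50 bins of length. In moderate hypoxia the line passes from below -1 for short genes to above 0.4 for long ones, and the Sec61 beta rows at -1.11 and -1.26 lie near it; on library totals the line and the points would both lie 0.69 higher.

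Genes of the same steps that the table files first under another pathway or none gave 66 further analysed rows. Of these, 8 (12.1%) were higher and 2 (3.03%) lower in moderate hypoxia, below the 20% and 14.1% of all genes, with a median of 0.27. In severe hypoxia 3 (4.55%) were higher and 0 lower, beside 13.7% and 4.4% of all genes, with a median of -0.02. The order of the steps was only partly the same. Medians in moderate hypoxia were 0.76 for 8 lectin rows, 0.41 for 16 export rows, 0.36 for 2 translocation rows and 0.29 for 20 folding rows. They were 0.10 for 2 cytosolic ERAD rows, -0.06 for 8 oligosaccharyltransferase rows and -0.46 for 10 membrane ERAD rows. Folding thus lay below export here, the reverse of the member rows. Of the 20 folding rows 13 lay above the control, and 1 (5%) was 2-fold or more higher. The oligosaccharyltransferase, high among the members, lay below all steps except membrane ERAD. Its 8 rows here are short, with a median length of 1226 bases, and were not set against genes of like length. Calreticulin, the soluble partner of calnexin, had 2465, 6742 and 2056 counts on its most abundant row calr3b, with log2 ratios of 0.76 and -0.55. Its other rows lay between -0.08 and 1.77 in moderate and between -0.14 and 0.28 in severe hypoxia. The 2 rows of the related chaperone CLGN had 18.1, 232 and 44.4 counts and 20.9, 251 and 54.9 counts. Pdia3, the isomerase that works with the lectins, had 1635, 3463 and 2350 counts on its most abundant row, and the COPII scaffold sec16a 598, 1655 and 731. The stress sensors and their chaperone targets, left out by the rule, had a median of 0.84 over 29 rows in moderate hypoxia, with 13 higher (44.8%) and 3 lower (10.3%), and of 0.14 in severe hypoxia, with 3 higher (10.3%) and 0 lower.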

How the data were processed

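RNA of 9 libraries in 3 groups was analysed, grouped by the treatment in the labels. Per the file headers, the authors deposited for each gene and group 1 FPKM value and 1 mean estimated count, with no value per library, and all 6 columns were matched to groups (0 unmatched). The counts are taken as means of 3 libraries, since 73.9%, 69.6% and 71.5% of non-zero values in the control, moderate and severe groups, multiplied by 3, were whole within 0.002. The submitters' processing notes list HISAT2 and Bowtie2 2.2.8 without saying what each did. Which counter, build and filters were used is not given in the sources used here. Fields of 8 characters were read by position, so longer symbols are cut off at 8 characters. Of the members' symbols, 6 had exactly 8 characters and may be cut, and 2 of these 6 were found whole in RefSeq.

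Scaling used the 28711 genes that reached a group mean of 10 counts and TMM, the trimmed mean of M values (trims of 30% for ratios and 5% for abundances; numpy 2.4.6, pandas 2.3.3, scipy 1.17.1, Python 3.11.15; figures in matplotlib 3.10.9). Intervals are exact Clopper-Pearson 95% intervals on counts summed over 3 libraries. They cover counting error only and hold no term for the spread between fish. The counts are estimated, and reads carried no molecular identifiers. A group at 0 was set to 3 counts. Gene length was derived from count and FPKM, and its trend removed in 50 bins. Each row was assigned to a step from its symbol, and 12 rows from description and annotation after the table was seen. The named genes were 28 core genes and, per step and comparison, up to 3 rows with the largest ratio and at least 50 counts in the higher group; the text also gives other subunits of the same complexes, chosen after their values were seen. Of the members' symbols, 71 were found in RefSeq's genes of USDA_OmykA_1.1. Scaling and intervals were tested on simulated counts with counting error only and few changed genes. That setting is simpler than these data, so it cannot show how well either holds here. The members and lists were chosen with earlier results of these data known. Alternatives were library totals, other scalings, minimum counts, folds and units, length correction and summing of copies. Values of some single member genes are not reported here.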

Additional observations from a re-analysis of the deposited data

How the results depend on the processing

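Each alternative below is set against the values of the report. Counts are of 260 rows, except 141 with rows of a symbol summed, 230 at a minimum of 50 counts and 236 without author-assembled loci. The share of all genes is not given under these alternatives, so the changed counts alone show nothing particular to the members. In moderate hypoxia, the 51 higher member rows became 109 on library totals, 81 on totals without globin and mitochondrial genes, 100 on FPKM with a pseudocount of 0.1 and 23 with rows of a symbol summed. The 26 lower rows became 4, 6, 4 and 12 under these, 2 on FPKM with a pseudocount of 1, 12 with the length trend removed and 53 at 1.5-fold. The members' median of 0.09 became 0.78, 0.58, 0.75 and 0.60 on totals, reduced totals and FPKM with pseudocounts of 0.1 and 1. In severe hypoxia, the 27 higher rows became 14 on FPKM with a pseudocount of 1, 11 summed and 41 at 1.5-fold, and the 6 lower rows 2 on totals, 2 at a minimum of 50 counts, 0 and 2 on FPKM with pseudocounts of 1 and 0.1, 3 summed and 24 at 1.5-fold. The median of -0.04 changed sign, to 0.30, 0.19, 0.22 and 0.28 on totals, reduced totals and FPKM with pseudocounts of 1 and 0.1, where the median of all genes shifts too. Folding exceeded export by 0.036 in place of 0.22 on FPKM with a pseudocount of 1. For severe against moderate hypoxia, the 13 higher rows became 7 on totals, 8 on reduced totals, at a minimum of 50, with the length trend removed, summed or without author-assembled loci, 3 and 6 on FPKM with pseudocounts of 1 and 0.1, and 31 at 1.5-fold. The 20 lower rows became 50, 36, 12, 46, 7 and 57 on totals, reduced totals, a minimum of 50, FPKM with a pseudocount of 0.1, summed rows and 1.5-fold. The median of -0.13 became -0.48, -0.40, -0.35 and -0.48 on totals, reduced totals and FPKM with pseudocounts of 1 and 0.1. Folding minus export changed sign from 0.11 to -0.080 with the length trend removed and -0.072 with rows summed, and export minus membrane ERAD moved from -0.43 to -0.25 with the length trend removed. The cause of these changes was not tested. Leaving out author-assembled loci, or rows with no step, was added after seeing the data. Of the 297 values of 99 named rows, sign changes were counted only for those at 2-fold or more. Summing all rows of a symbol changed the sign of 5 of these. In moderate hypoxia they were DNAJC5, the second copy, to 0.59, SAR1B, the first copy, to 0.11 and ero1b to -0.20. The others were ERLEC1 to -0.41 in severe hypoxia, and the second SAR1B copy to 0.62 for severe against moderate hypoxia. Smaller values also changed sign and were not counted. Among them in moderate hypoxia were sar1a, from 0.63 to -0.50, and the second SEL1L copy, from -0.42 to 0.14. No paired analysis was possible because the table holds 1 value per gene and group, for which reason leaving out replicates was also not run. Promoter motifs, with their window alternative, and ER retention tails were planned and not run, since no sequence table was used here. Rows near 10 counts have wide counting intervals, and the spread between fish limits every value by an unknown amount.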

Other observations

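Of the 17 member rows without a step, 11 carry the annotation of the ubiquitin ligase UBE4B but descriptions of a transposase or a paired box protein, so their place in the pathway is doubtful. The 17 rows had a median log2 ratio of -0.87 in moderate and -0.32 in severe hypoxia, with 2 higher (11.8%) and 8 lower (47.1%) in moderate hypoxia, beside 20% and 14.1% of all genes. An unnamed row annotated as FBXO6, an F-box protein that binds glycoproteins, had 3486 counts in the control, 1053 under moderate and 2143 under severe hypoxia and was 5.35-fold lower in moderate hypoxia (counting interval 5.15 to 5.57). The 3 rows with the symbol FBXO6 had log2 ratios between 0.52 and 1.17 there. Both were singled out after their values were seen.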
